A study of Mus musculus with 4 samples.

Results

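Interferon-stimulated genes were followed through the cell types of mouse bone marrow in 2 TLR9-/- and 2 wild-type (WT) mice. The set held 42 genes chosen by symbol, of which 41 were among the 31053 genes of the count tables. Mx2 was the member without a row and was not analysed here. Marrow was flushed from femur and tibia of C57BL/6 mice, mononuclear cells were separated on Ficoll, and the 5′ ends of their transcripts were sequenced on the 10x Chromium platform with 1 library per mouse. In the TLR9-/- mice the gene of Toll-like receptor 9 is disrupted, and the age and sex of the 4 mice are not given in the sources used here. The mice came from 2 experiments with 1 TLR9-/- and 1 WT mouse in each, and whether replicate numbers 1 and 2 mark these experiments is not stated in the labels.

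Interferons are secreted proteins that put cells into an antiviral state. Type I interferons bind the receptor of Ifnar1 and Ifnar2, whose kinases Jak1 and Tyk2 phosphorylate Stat2, which enters the nucleus with Irf9 and switches on target genes through a promoter element built from repeats of GAAA. Interferon-γ acts through the receptor of Ifngr1 and Ifngr2. Toll-like receptor 9 recognises unmethylated CpG DNA in endosomes and, in plasmacytoid dendritic cells above all, leads through Myd88 and Irf7 to the making of type I interferon. Among the targets, the Ifit proteins bind foreign RNA, the Oas proteins make the messenger that activates RNase L, Rsad2 (viperin) and its neighbour Cmpk2 act on nucleotides, Isg15 is a ubiquitin-like modifier that Usp18 removes, Ifitm3 blocks entry of viruses at membranes, and the Gbp and immunity-related GTPases (Igtp, Irgm1, Iigp1, Ifi47) act on membranes around intracellular pathogens and respond chiefly to interferon-γ.

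The promoter element could be read in the sequence upstream of the members. RefSeq promoters on GRCm38.p6, from 250 bases before to 50 after the start of a gene, were found for 30 members. The letters GAAA, any 2 bases and GAAA, on either strand, stood in 18 of these 30 promoters (60%) and in 3.99% of the promoters of 27025 genes. The next 4 members are shown because the results below turn on their levels, with the matches in capitals, as the 150 bases before the start on the strand of the gene. Isg15 had 3 overlapping matches, Ifit1 had 2, and Rsad2 and Oas3 had 1 each.
Isg15 (chr4:156200819-156200968, minus strand): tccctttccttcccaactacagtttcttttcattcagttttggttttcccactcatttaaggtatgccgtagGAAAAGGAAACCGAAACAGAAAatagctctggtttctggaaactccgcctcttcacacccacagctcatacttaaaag
Rsad2 (chr12:26456453-26456602, minus strand): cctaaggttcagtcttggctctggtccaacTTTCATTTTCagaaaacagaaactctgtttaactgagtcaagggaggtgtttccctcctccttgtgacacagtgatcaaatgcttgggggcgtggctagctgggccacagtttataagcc
Oas3 (chr5:120777660-120777809, minus strand): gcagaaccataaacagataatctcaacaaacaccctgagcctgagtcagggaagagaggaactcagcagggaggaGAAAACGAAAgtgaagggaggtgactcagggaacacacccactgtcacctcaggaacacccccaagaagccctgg
Ifit1 (chr19:34640739-34640888, plus strand): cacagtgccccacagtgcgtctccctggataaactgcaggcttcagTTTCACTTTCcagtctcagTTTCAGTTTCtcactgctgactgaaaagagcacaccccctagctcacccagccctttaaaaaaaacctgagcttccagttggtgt

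The next pair, Oasl2 and Cmpk2, had the most cell classes without overlap of the genotypes of any member. Both TLR9-/- libraries lay below both WT libraries in 9 of 10 and 10 of 11 tested classes. This order held in 17.3% of all gene tests, and the classes share the same 4 mice. The difference between the genotypes had an adjusted p under 0.05 by edgeR in 2 classes for Oasl2 and in 0 for Cmpk2. Neither gene had these letters in its window. This says only that the letters are not there.
Oasl2 (chr5:114896784-114896933, plus strand): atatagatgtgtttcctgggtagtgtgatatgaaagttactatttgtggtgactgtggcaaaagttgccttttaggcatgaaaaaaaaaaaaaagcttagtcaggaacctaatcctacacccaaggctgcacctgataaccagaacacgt
Cmpk2 (chr12:26469065-26469214, plus strand): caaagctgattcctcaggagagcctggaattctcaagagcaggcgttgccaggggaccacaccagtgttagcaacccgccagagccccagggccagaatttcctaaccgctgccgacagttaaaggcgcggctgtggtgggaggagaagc

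The filters kept 39167 of the 40545 cells, and their unique molecular identifiers (UMIs), which mark single captured molecules, were summed per gene, library and cell class. Libraries held 31210188 to 63958243 UMIs with a median of 1759 to 3618 per cell, and the WT replicate 1 library was the shallowest on both counts. Any 2 libraries shared 118 to 203 cell barcodes. Tlr9 itself had 41, 48, 120 and 97 UMIs in TLR9-/- replicates 1 and 2 and WT replicates 1 and 2, or 0.817, 0.75, 3.84 and 2.34 per 1000000 UMIs of all cells, so that its transcript was still counted in TLR9-/- marrow (adjusted p = 0.117 for the difference by edgeR). All values of the 4 libraries are given in this order, and a level in CPM is the UMIs of a gene over all UMIs of that class in that library, scaled to 1000000. Cells were clustered without the members, and clusters were named from marker genes, so that a name means cells resembling that type. Clusters whose markers did not support a name are called by their leading genes. The cluster led by C1qb, C1qc and C1qa held 0.566%, 0.976%, 1.26% and 0.686% of the cells of the 4 libraries. That led by Klk1, Siglech and Gm21762 held 0.408%, 0.325%, 1.02% and 0.304%. For both, WT replicate 1 was highest and the genotypes overlapped. That led by Tctex1d1, Ass1 and Serpinf1 held 5.20%, 4.63%, 1.63% and 1.44%. In all, 18 classes had at least 10 cells and 50000 UMIs in every library. A cluster led by Igkv9-120, Ighv1-81 and Igkv10-94 had 172, 3, 124 and 3 cells and was not tested.

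The members were spread unevenly over the marrow. Mature neutrophils held the highest median CPM for 9 members, the C1qb, C1qc and C1qa cluster for 8, and erythroid cells, plasmacytoid dendritic cells, T cells and the 66 stromal and endothelial cells for 4 each. A member was said to mark a class where its lowest library there lay above the highest library of every other class. This held for 5 of the 41 members, against 7.12% of all 31053 genes. That share counts genes with few or no UMIs, while every member had at least 144, so the comparison is not like for like. For 33 members the highest class overlapped the next one. The 5 were Oas2, Oas3 and Rtp4 in mature neutrophils, Isg20 in erythroid cells and Ifitm3 in monocytes. Ifi27l2a and Ifitm3 together supplied 65.3% of all member UMIs.

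In mature neutrophils Oas2, Oas3 and Oasl1 of the Oas family and Ifit1, Ifit3 and Ifit3b stood highest by median, as did Rtp4, Samd9l and Cmpk2. Oasl1, Ifit1, Ifit3, Ifit3b and Samd9l overlapped their next class. Oasl1 had 10.3 to 69.0 CPM in mature neutrophils and 0 to 30.3 CPM in the C1qb, C1qc and C1qa cluster. Oas3 (chromosome 5, 120753098 to 120777661 on GRCm38) had 95.3, 113, 139.9 and 128 CPM there, and its next class, monocytes, had 8.57, 20.7, 41.6 and 19.9 CPM. Oas2, its neighbour on chromosome 5, had 30.4, 27.5, 34.4 and 31.7 CPM, with all 4 libraries above the monocyte libraries (4.15, 8.18, 15.1 and 7.34 CPM). Rtp4, a chaperone of receptors at the cell surface, had 200.5, 96.1, 126 and 95.1 CPM. The nearest library elsewhere was that of NK cells in WT replicate 1, with 76.2 CPM from 18 UMIs. Ifit1 had 30.4, 19.997, 34.4 and 11.8 CPM and Ifit3 26.3, 23.6, 36.7 and 8.11 CPM in mature neutrophils, so that WT replicate 1 was highest and WT replicate 2 lowest for both. Immature neutrophils lay far lower in every library, with 1.72, 3.96, 4.13 and 1.21 CPM of Ifit1 and 0.984, 3.96, 3.21 and 0.202 CPM of Ifit3. Ifit3 and Ifit3b lie side by side on chromosome 19 and are near-identical, so reads could be split between them or lost, and both levels are uncertain. The Oas, Gbp and Slfn families also hold related genes, and whether reads were shared between them was not tested, so their levels carry this doubt too.

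Erythroid cells were the class of Isg15, Isg20 and Rsad2. Isg20, an exonuclease that degrades single-stranded RNA (chromosome 7, 78913424 to 78920396), had 478, 455, 714 and 455 CPM there, and the highest library of any other class was the WT replicate 2 library of stromal and endothelial cells at 164 CPM. Isg15 had 593, 225, 1445 and 127 CPM. Rsad2 had 162, 83.5, 278 and 55.1 CPM and was second highest in mature neutrophils with 62.4, 42.5, 55.1 and 50.9 CPM. The neutrophil libraries of Rsad2 were close to each other while the erythroid libraries spanned a wide range, and the 2 classes overlapped.

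Monocytes carried the most Ifitm3 and Ifi27l2a. Ifitm3 (chromosome 7, 141009586 to 141010770) had 3217, 3862, 4799.9 and 3289 CPM, above its highest library in mature neutrophils, 2305 CPM. Ifi27l2a, a small hydrophobic membrane protein, had 1562, 2298, 3731 and 1509.9 CPM in monocytes and 1475, 1053, 3102 and 1319 CPM in B cells, so that these classes overlapped. Oas1a was highest in monocytes too, with 42.02, 58.1, 103 and 28.7 CPM.

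Plasmacytoid dendritic cells, the professional makers of type I interferon, held the highest levels of Stat2, Usp18, Ifi44 and Slfn8. Stat2, which carries the interferon signal to the nucleus, had 82.4, 104, 98.1 and 118 CPM there, against 27.5, 44.5, 31.7 and 32.6 CPM in B cells and 15.5, 27.7, 27.9 and 22.7 CPM in monocytes. Its next class, the C1qb, C1qc and C1qa cluster, had 27.7 to 84.8 CPM and overlapped. Usp18, which restrains the receptor, had 25.0, 33.5, 49.5 and 21.3 CPM. In T cells 3 of the GTPases that respond to interferon-γ were highest, with 221, 173, 187 and 111 CPM of Ifi47, 43.5, 47.4, 61.6 and 33.6 CPM of Igtp and 57.1, 30.2, 40.4 and 33.6 CPM of Gbp7. NK cells led for Sp100, a nuclear body protein, with 279, 245, 249.8 and 244 CPM. Usp18, Ifi44, Ifi47, Gbp7 and Sp100 overlapped their next class, while Igtp and Slfn8 did not.

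The C1qb, C1qc and C1qa cluster had 342 cells. In it 14 of 23 macrophage markers and 18 of 22 markers of plasmacytoid dendritic cells were raised, so it was not named. The cluster held the highest levels of 8 members, all on few UMIs. Xaf1, which opposes the apoptosis inhibitor Xiap, had 45.1, 49.5, 68.5 and 36.3 CPM there and 42.7, 47.1, 67.8 and 31.8 CPM in monocytes, so that the classes did not differ beyond their spread. Mx1, a GTPase that blocks influenza virus, had 17.3, 22.5, 54.8 and 24.2 CPM in that cluster and 17.8, 27.6, 48.6 and 12.5 CPM in plasmacytoid dendritic cells, and WT replicate 1 was highest in both. Irgm1, which regulates the other immunity-related GTPases, had 48.6, 54.1, 57.1 and 36.3 CPM. Parp9 had 31.2, 27.0, 36.5 and 18.2 CPM, Tor3a 20.8, 54.1, 43.4 and 60.6 CPM, and Dhx58 (LGP2), a relative of the RNA sensors, 27.7, 20.3, 25.1 and 6.06 CPM. For Herc6 and Ifit2 fewer than 15 UMIs stood behind each library. Ifi44 was highest in plasmacytoid dendritic cells, with 25.0, 26.4, 55.7 and 20.01 CPM, as was Slfn8, with 56.5, 66.4, 47.7 and 62.5 CPM. B cells led for the RNA sensor Ddx58 (RIG-I), with 41.6, 46.1, 49.0 and 52.8 CPM, and for Parp14, with 45.9, 47.3, 46.5 and 40.5 CPM.

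Some members had no clear home. Zbp1, a sensor of nucleic acids in the Z form, had 45.9, 53.4, 57.4 and 50.4 CPM in T cells and 38.7, 54.9, 94.0 and 44.1 CPM in monocytes. Samd9l had 129, 98.9, 202 and 98.0 CPM in mature neutrophils, and Lgals3bp, a secreted glycoprotein, 68.6, 99.9, 102 and 131 CPM in NK cells. Gbp3 was highest in the Tctex1d1, Ass1 and Serpinf1 cluster, with 25.7, 36.8, 28.6 and 28.1 CPM. Ifih1 was led by erythroid cells at only 15.6, 14.98, 24.4 and 10.8 CPM. In the 66 stromal and endothelial cells Slfn5 had 4, 11, 7 and 13 UMIs, Iigp1 11, 9, 2 and 2, Oasl2 4, 7, 3 and 0 and Gbp2 6, 1, 2 and 1, which are too few to place these members. Ifit3b, with 144 UMIs the scarcest member, had 23, 27, 8 and 3 UMIs in mature neutrophils.

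**Figure D1:**
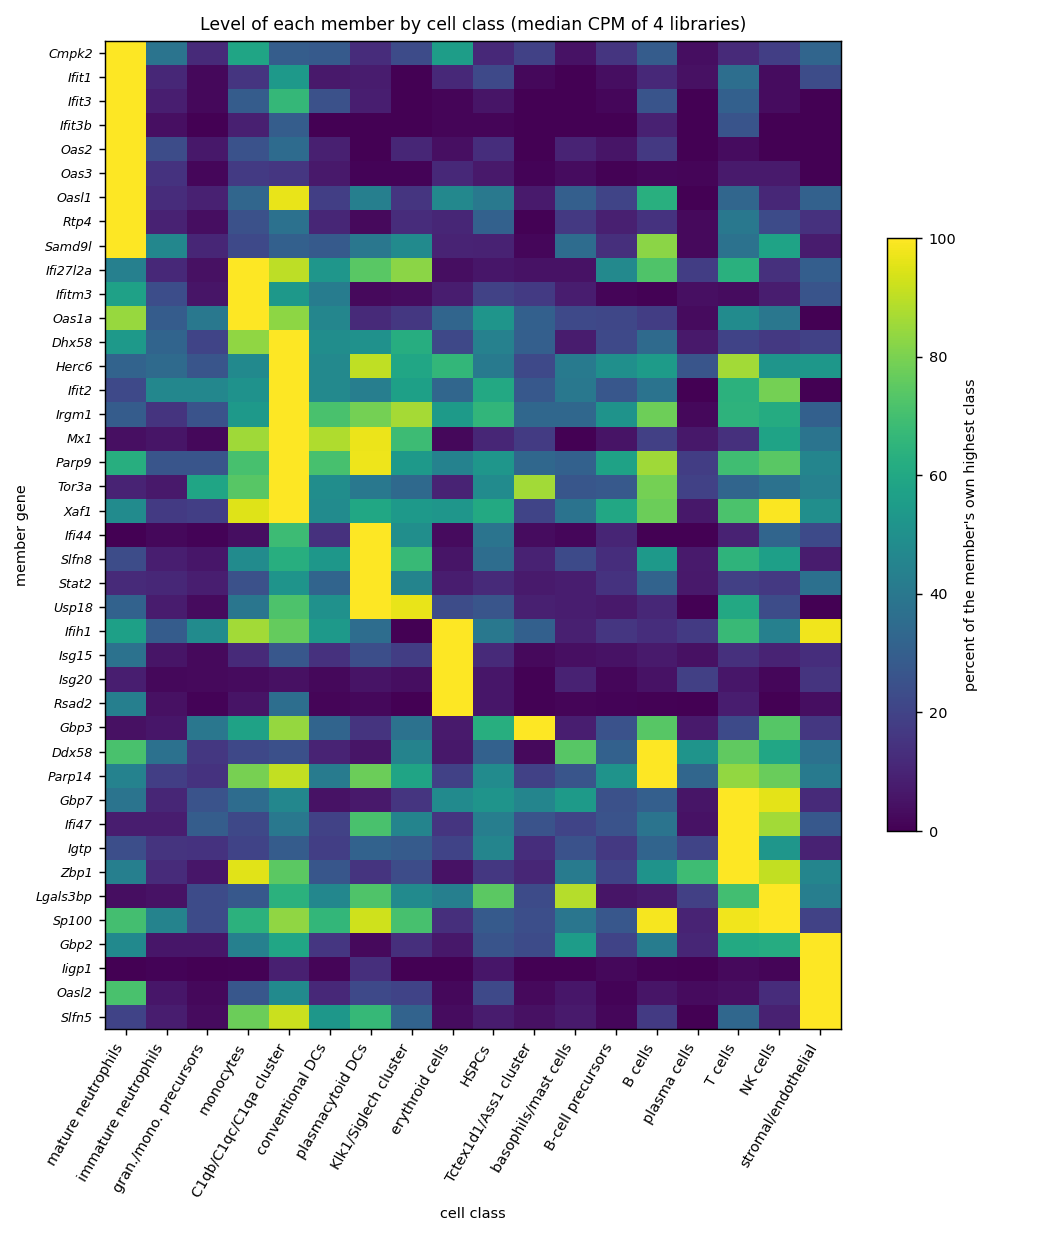
Level of the 41 members (rows) in the 18 cell classes (columns), as the median CPM of the 4 libraries in percent of the member's own highest class. The yellow blocks show the class in which each member was highest, with 9 members in mature neutrophils, 8 in the C1qb, C1qc and C1qa cluster and 4 in erythroid cells.

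Among the erythroid clusters, Isg15, Isg20 and Rsad2 stood lowest in the early cells. They stood highest in the cells richest in globin, apart from Isg20 in WT replicate 1. Cluster 2, led by Mt2 and Car1 and with 1014 to 3919 CPM of globin, had 2.997, 2.59, 9.70 and 3.95 CPM of Rsad2. Cluster 9, led by Slc4a1, had 300.3, 79.9, 346 and 50.9 CPM. Cluster 10, led by Tmcc2 and Bpgm and with 387822 to 587124 CPM of globin, had 1525, 2982, 1232 and 1819 CPM, so that every library was higher there than in the other 3 clusters. Isg15 moved from 19.1, 48.1, 82.7 and 19.3 CPM in cluster 2 to 3571, 1732, 3547 and 1301 CPM in cluster 10, and Isg20 from 157, 212, 223 and 248 CPM to 1178, 1571, 1036 and 1082 CPM. In cluster 9 Isg20 had 999.6, 879.7, 1090 and 779.5 CPM, so that WT replicate 1 was higher there than in cluster 10. Cmpk2, the divergent neighbour of Rsad2 on chromosome 12, had 60.4, 24.7, 71.0 and 26.6 CPM in cluster 10. Cluster 10 held 82, 99, 212 and 96 cells. These clusters were made without the members but from genes that change together in erythroid cells, and the differences between them were not tested.

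**Figure D2:**
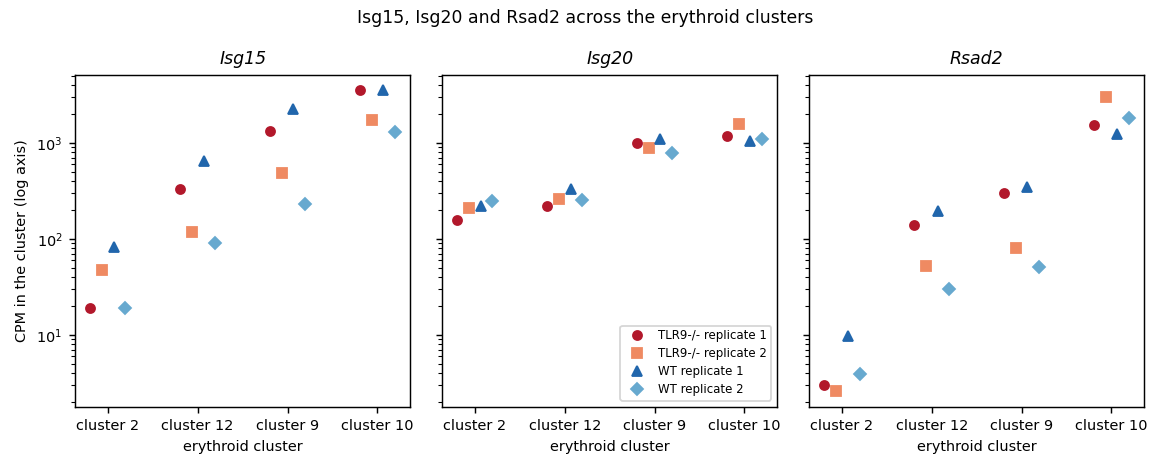
Isg15, Isg20 and Rsad2 in the 4 erythroid clusters, in CPM on a log axis, with 1 point per library. Rsad2 stands between 2.59 and 9.70 CPM in cluster 2 and between 1232 and 2982 CPM in cluster 10, and TLR9-/- replicate 1 and WT replicate 1 lie above the other libraries for Isg15 in clusters 9, 10 and 12.

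A single library stood apart for the members. WT replicate 1 was the highest library in 321 of the 455 member-by-class tests (70.5%), against 23.2% of all 129777 gene-by-class tests. These tests repeat the same genes over classes of the same mice. The members were also chosen with earlier results of these data known. The 2 shares therefore describe these libraries and are not a test. The other libraries were highest in 29, 70 and 35 of them. WT replicate 1 was also highest for most members tested in 15 of the 18 classes, and it held the largest summed member CPM in 18 of 18, or in 17 without Ifi27l2a and Ifitm3. Its sum was 1.12 to 2.01 times that of the next library. In monocytes the members summed to 5589, 7222, 10121 and 5635 CPM, in B-cell precursors to 1071, 1631, 3270 and 1068 CPM, and in erythroid cells to 1948, 1512, 3886 and 1176 CPM. The sum of WT replicate 2 was at most 1.1 times that of the higher TLR9-/- library in 17 classes. On the log2 scale the median member was higher in WT replicate 1 than in WT replicate 2 in all 18 classes. This gap ran from 0.18 in basophils and mast cells and 0.42 in mature neutrophils to 0.97 in monocytes, 1.02 in plasmacytoid dendritic cells and 1.18 in erythroid cells. The median of all genes lay between −0.12 in erythroid cells and 0.11 in stromal and endothelial cells. Ifi27l2a was highest in WT replicate 1 in 18 of its 18 classes, Zbp1 in 16 of 16, Xaf1 in 15 of 15 and Isg15 in 15 of 16. Tor3a (2 of 13 classes), Gbp3 (2 of 9) and Slfn8 (4 of 14) did not follow this pattern.

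**Figure D3:**
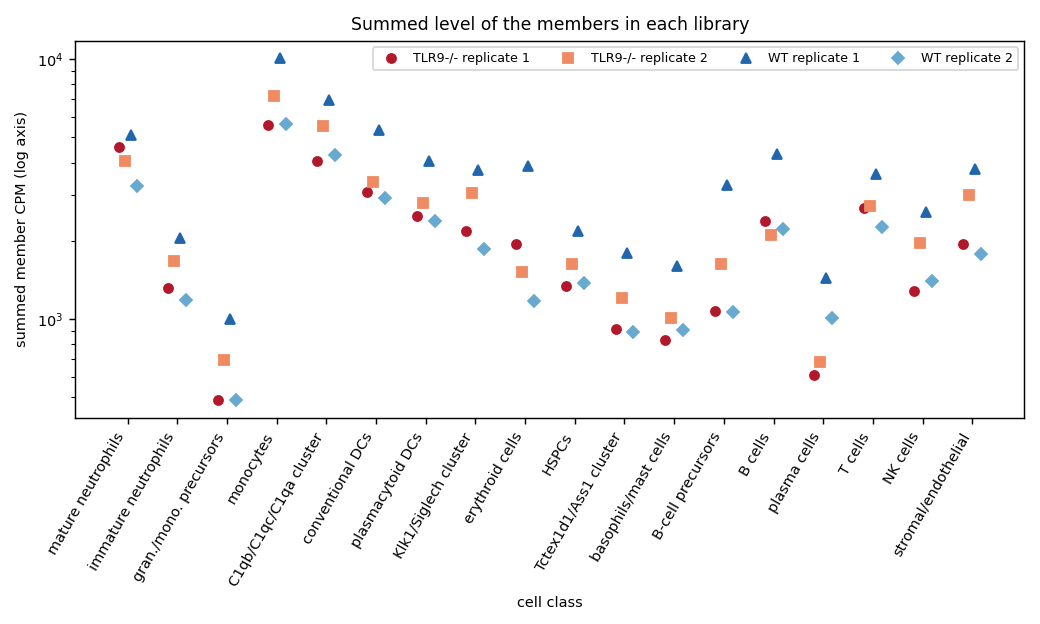
Summed CPM of the members in each library (log axis) for the 18 cell classes. WT replicate 1 (dark triangles) is the highest point in every class, for example 10121 CPM in monocytes against 5589 to 7222 CPM in the other libraries.

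Depth and globin moved with this library. WT replicate 1 had the lowest median UMIs per cell, and its globin genes were the highest of the 4 libraries in 11 of the 17 classes other than erythroid cells (for instance 298, 257, 1247 and 365 CPM in monocytes). In WT replicate 1 there were 8.59 UMIs of Isg15 per 1000 globin UMIs in erythroid cells and 9.52 to 441 in the other classes, with the lowest ratio in basophils and mast cells and the highest in the Klk1, Siglech and Gm21762 cluster. The part of globin in the result was not tested. To set depth aside, cells were thinned to 1000 UMIs and those with at least 3 member UMIs were counted. These were 79.1%, 88.5%, 92.8% and 83.4% of monocytes, 41.3%, 32.0%, 62.8% and 22.3% of erythroid cells, 19.8%, 31.8%, 48.5% and 19.0% of B-cell precursors and 35.0%, 40.3%, 55.7% and 35.9% of plasmacytoid dendritic cells. Before thinning the monocyte shares were 98.6%, 99.7%, 99.2% and 97.5%, and 1897, 466, 2713 and 1156 cells over all classes were too shallow to be thinned. WT replicate 1 had the highest thinned share in 17 of 18 classes. The share in monocytes was 83.8% ± 6.62 in TLR9-/- and 88.1% ± 6.70 in WT mice (SD over 2 libraries each), a difference of −4.32 percentage points that was smaller than the spread between libraries (two-sided exact permutation test p = 0.667, where 2 libraries against 2 allow no p below 0.333). Without WT replicate 1 the difference was 0.417 points, and without TLR9-/- replicate 1 it was 0.359 points.

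Against this background TLR9-/- was compared with WT in each class by edgeR's quasi-likelihood test on the summed UMIs. The median member was lower in TLR9-/- cells in 18 of 18 classes, by 0.03 to 0.83 on the log2 scale, while the medians of all genes lay between −0.03 and 0.04. Without WT replicate 1 the median member was below 0 in 4 of the 18 classes, with a range of −0.37 to 0.85. That library was singled out for its high member values, so leaving it out raises these medians by how it was chosen. This is therefore not a separate test. In monocytes, for example, the median was −0.34 with all libraries, 0.19 without WT replicate 1 and −0.74 without WT replicate 2. It was −0.18 without TLR9-/- replicate 1 and −0.56 without TLR9-/- replicate 2. In B-cell precursors the median was −0.33 with all libraries, 0.10 without WT replicate 1 and −0.76 without WT replicate 2. Both TLR9-/- libraries lay below both WT libraries in 98 of the 455 tests (21.5%), against 17.3% of all tests. Both lay above in 27 tests (5.93%), against 19.6%. After adjustment over all genes of a class, 3 of the 455 tests passed, Oasl2 in immature and in mature neutrophils and Ifitm3 in T cells, where 440 of all 129777 tests (0.339%) passed. The count moved to 26 with no filter on low counts, 21 with a replicate block, 1 with doublets left out and 2 with cells of at least 1000 UMIs. Between same-numbered libraries the median member of monocytes differed by −0.82 for number 1 and 0.33 for number 2 (TLR9-/- minus WT, log2). The labels do not say that these numbers pair the mice. The shares of all gene tests that passed in these settings are not given here. In a class sum, fewer cells with a gene and less RNA per cell cannot be told apart, and the p-values measure the spread between mice of 2 libraries per genotype.

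**Figure D4:**
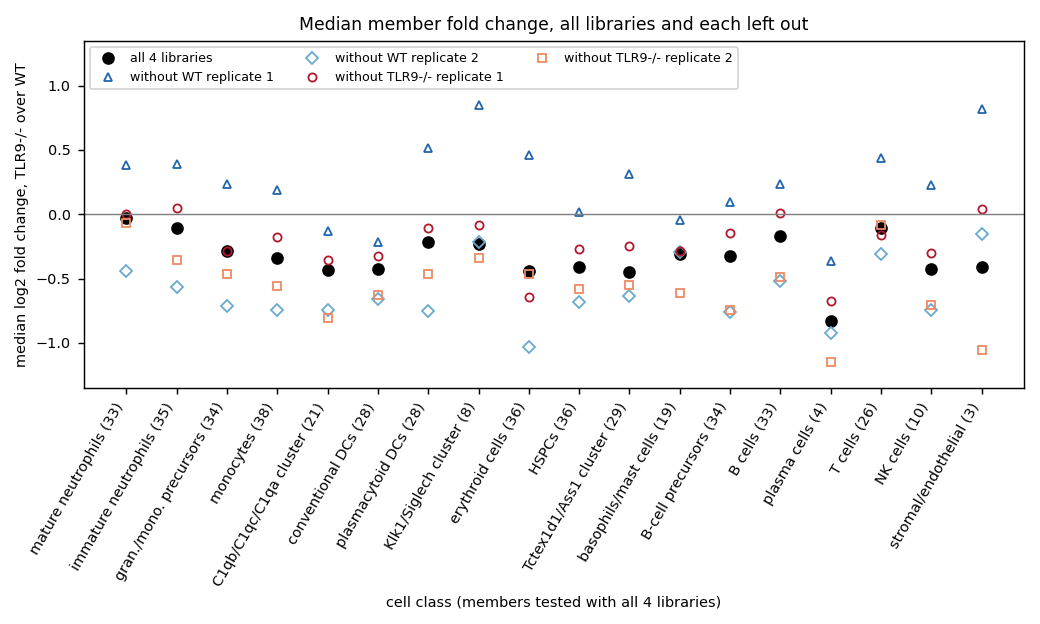
Median log2 fold change (TLR9-/- over WT) of the members tested in each class, with all 4 libraries (black) and with each library left out (open symbols). With all libraries the medians lie between −0.83 and −0.03, and without WT replicate 1 (triangles) they lie between −0.37 and 0.85.

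Oasl2, an Oas-like protein with ubiquitin-like domains (chromosome 5, 114896936 to 114912234), was much lower in TLR9-/- neutrophils. In mature neutrophils it had 9, 5, 36 and 92 UMIs, or 7.39, 1.79, 82.6 and 67.8 CPM, and the genotypes did not overlap. WT cells averaged 75.2 ± 10.5 CPM and TLR9-/- cells 4.59 ± 3.97 CPM (SD over 2 libraries each, n = 2). On the log2 scale they differed by −4.23 (standard error 0.54, adjusted p = 0.0281 by edgeR), which is an 18.8-fold lower level, in a class where 0.156% of 5784 genes passed. In immature neutrophils it had 3, 5, 23 and 27 UMIs, or 0.738, 0.861, 10.5 and 5.44 CPM, and again no TLR9-/- library reached a WT library. Here TLR9-/- minus WT was −3.12 on the log2 scale (standard error 0.55, adjusted p = 0.0264), where 0.525% of 9330 genes passed. Both calls rest on few UMIs. In immature neutrophils, cells marked as doublets held 2 of the 3, 2 of the 5, 4 of the 23 and 21 of the 27 UMIs of Oasl2. Without WT replicate 1 the log2 fold change was −4.08 in mature neutrophils and −2.63 in immature neutrophils. Without WT replicate 2 it was −4.42 in mature and −3.62 in immature neutrophils. The direction stayed, but these fits hold a single WT library and not every call held in them.

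Oasl2 was lower in 10 of the 10 classes in which it could be tested, and in 9 of them the genotypes did not overlap. Both TLR9-/- libraries lay below both WT libraries in 17.3% of all gene tests. The classes come from the same 4 mice and are not separate samples. Monocytes had 4.42, 11.1, 49.3 and 17.5 CPM (adjusted p = 0.248), and HSPCs, the stem and progenitor cells, 6.82, 4.72, 23.7 and 16.5 CPM (adjusted p = 0.137). In B cells 0, 1, 16 and 18 UMIs were counted. Erythroid cells had 0.544, 0.899, 15.4 and 1.34 CPM and granulocyte and monocyte precursors 0.454, 0.506, 14.97 and 1.89 CPM, where only WT replicate 1 stood well above the rest. Plasmacytoid dendritic cells were the class that overlapped, with 9.69, 13.5, 30.05 and 10.0 CPM. Within mature neutrophils the difference was seen in both clusters. Cluster 8, led by Gm5483 and Il1b, had 9.42, 4.90, 254 and 131 CPM of Oasl2, and cluster 15, led by Mmp8 and Mmp9, had 2.72, 0.504, 15.9 and 11.1 CPM. These are 8, 4, 31 and 84 UMIs in cluster 8 but only 1, 1, 5 and 8 UMIs in cluster 15.

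Oasl1, its neighbour and paralog on chromosome 5 (114923240 to 114937915), which holds back the translation of Irf7, went the other way in mature neutrophils. It had 69.0, 26.1, 11.5 and 10.3 CPM there, with both TLR9-/- libraries above both WT libraries, but the log2 fold change of 2.06 (standard error 0.49) did not pass the adjustment. The order held in cluster 8, with 98.9, 67.4, 24.5 and 20.3 CPM, while in cluster 15, with 0, 9.07, 6.38 and 1.39 CPM, the genotypes overlapped. Cluster 8 held 669, 467, 121 and 520 cells and cluster 15 held 163, 631, 212 and 301 cells, so that their mix differed between the libraries. In monocytes the genotypes overlapped, with 4.29, 12.6, 8.06 and 3.50 CPM. Reads of these paralogs could be split between them by the counting, so the levels of both are uncertain. Isg15, Usp18, Ifi27l2a and Stat2 overlapped between the genotypes in mature neutrophils. Isg15 had 212, 119, 188 and 84.8 CPM, Usp18 9.04, 9.28, 13.8 and 7.37 CPM, Ifi27l2a 1047, 628, 1388 and 534 CPM, and Stat2 14.8, 10.0, 13.8 and 10.3 CPM.

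**Figure D5:**
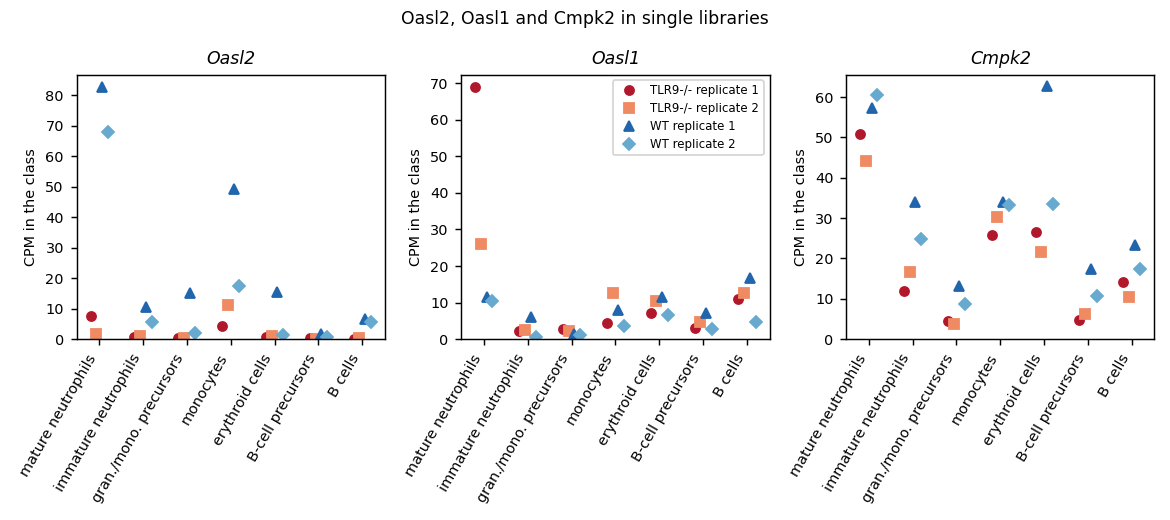
CPM of Oasl2, Oasl1 and Cmpk2 in 7 cell classes, with 1 point per library. In mature neutrophils the WT libraries have 82.6 and 67.8 CPM of Oasl2 and the TLR9-/- libraries 7.39 and 1.79 CPM, and the order is the opposite for Oasl1.

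Cmpk2, a mitochondrial nucleotide kinase (chromosome 12, 26469204 to 26479837), was lower in TLR9-/- cells in 11 of 11 tested classes. The genotypes did not overlap in 10 of them, an order that held in 17.3% of all gene tests. The classes come from the same 4 mice and are not separate samples. None of the differences in Cmpk2 passed the adjustment. The lowest adjusted p was 0.0987, in granulocyte and monocyte precursors, where Cmpk2 had 4.39, 3.61, 13.2 and 8.66 CPM (log2 fold change −1.49, standard error 0.31). B-cell precursors had 4.77, 6.17, 17.3 and 10.7 CPM (log2 fold change −1.40, standard error 0.31, adjusted p = 0.105), conventional dendritic cells 5.38, 9.97, 20.8 and 21.6 CPM, and immature neutrophils 11.8, 16.7, 33.9 and 24.8 CPM. In monocytes the 4 libraries were nearly level, at 25.7, 30.4, 33.9 and 33.2 CPM (log2 fold change −0.23, standard error 0.18). A test of the difference between monocytes and B-cell precursors, over 11427 genes of which 0.744% passed, gave 1.16 on the log2 scale for Cmpk2 (standard error 0.28, adjusted p = 0.0414). Cmpk2 was the member that passed of the 41 in this test. The call was lost without WT replicate 1 (0.81, adjusted p = 0.436), without TLR9-/- replicate 1 (1.13, adjusted p = 0.200) and without TLR9-/- replicate 2 (1.18, adjusted p = 0.159).

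Ifitm3 was higher in TLR9-/- T cells, with 216, 296, 26 and 21 UMIs or 174, 298, 55.2 and 70.5 CPM. WT T cells averaged 62.9 ± 10.8 CPM and TLR9-/- T cells 236 ± 88.0 CPM (SD over 2 libraries each). TLR9-/- minus WT came to 1.89 on the log2 scale (standard error 0.31, adjusted p = 0.0145), a 3.70-fold higher level, where 0.239% of 6684 genes passed. Few cells carried these molecules, namely 30 of 577, 31 of 313, 8 of 224 and 7 of 120 T cells, and a single cell of TLR9-/- replicate 2 held 72 of them. T cells marked as doublets held 122 of the 216, 168 of the 296, 17 of the 26 and 14 of the 21 UMIs. The 37 monocyte markers summed to 6086, 6011, 5523 and 4727 CPM in T cells, 2 of them at 0, the 26 immature neutrophil markers to 3890.5, 5840.1, 3755 and 3920.3 CPM, 1 of them at 0, and the 31 mature neutrophil markers to 2674, 4242, 3100.2 and 2899 CPM, 8 of them at 0. The 23 macrophage markers, 6 of them at 0, summed to 159, 228, 119 and 155 CPM. Monocytes and both kinds of neutrophil carry Ifitm3, and their part in the result was not tested. With doublets left out the log2 fold change was 2.12 and no longer passed (adjusted p = 0.256). In immature neutrophils Ifitm3 had 790.3, 951, 891 and 639.9 CPM, and the genotypes overlapped.

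In the other 15 classes, 0 of 361 member tests passed by edgeR, where 0.339% of all gene tests passed. The count was above 0 whichever library was left out. Such fits leave a single library in a genotype, so their counts are not read further. With all libraries 45 had an unadjusted p under 0.05, and DESeq2 called 2, both for Oasl2 (erythroid cells, and granulocyte and monocyte precursors). The shares of all gene tests by these measures are not given here, so these counts cannot be set against them. In monocytes Oas3 had 8.57, 20.7, 41.6 and 19.9 CPM (log2 fold change −1.05, standard error 0.43), so that the genotypes overlapped, and Gbp2, a guanylate-binding protein, had 9.12, 9.57, 21.1 and 11.5 CPM. In erythroid cells Oas3 had 12.1, 12.7, 41.2 and 14.7 CPM. In HSPCs Usp18 had 3.41, 4.72, 10.8 and 11.3 CPM from 10 to 14 UMIs a library. In B-cell precursors Herc6, an Isg15 ligase in the mouse, had 5.96, 7.41, 12.97 and 9.503 CPM and Gbp7 10.7, 16.4, 7.69 and 7.52 CPM. In conventional dendritic cells the RNA sensor Ifih1 (MDA5) had 2.15, 6.17, 11.0 and 10.3 CPM. In immature neutrophils, where Oasl2 passed, Tor3a had 3.93, 6.89, 2.75 and 2.22 CPM and Rsad2 1.23, 4.99, 10.1 and 5.85 CPM, and neither passed. The C1qb, C1qc and C1qa cluster had 93.6, 85.6, 306 and 127 CPM of Isg15 (log2 fold change −1.37, standard error 0.36, adjusted p = 0.267).

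In the rarer classes the WT libraries often differed from each other. In basophils and mast cells Ifi27l2a had 93.3, 94.1, 461 and 39.96 CPM and Isg15 14.96, 19.6, 75.1 and 10.7 CPM, so that the WT libraries stood on either side of both TLR9-/- libraries, whereas Gbp2 had 4.40, 8.18, 20.3 and 18.6 CPM from 5 to 10 UMIs. In plasma cells Ifitm3 had 109, 33.4, 206 and 188 CPM (log2 fold change −1.45, standard error 0.47, adjusted p = 0.785). In the Tctex1d1, Ass1 and Serpinf1 cluster Isg15 had 7.54, 14.2, 54.9 and 5.41 CPM, while Cmpk2 had 5.42, 8.09, 12.9 and 14.6 CPM without overlap. In granulocyte and monocyte precursors Ifi27l2a had 27.9, 93.1, 188 and 73.5 CPM. Plasmacytoid dendritic cells, NK cells, stromal and endothelial cells and the Klk1, Siglech and Gm21762 cluster had no member with an unadjusted p under 0.05.

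Among the classical members WT replicate 1 stood apart from the other 3 libraries. Isg15 had 37.0, 56.9, 145 and 39.2 CPM in monocytes, 14.8, 22.8, 45.8 and 16.5 CPM in B-cell precursors, 23.9, 31.4, 57.8 and 27.8 CPM in B cells, and 17.0, 29.8, 65.6 and 17.3 CPM in immature neutrophils. In each of these WT replicate 1 was highest and WT replicate 2 lay among the TLR9-/- libraries. Ifi27l2a was highest in WT replicate 1 and lowest in WT replicate 2, with 707, 1110.5, 2618 and 674 CPM in B-cell precursors, 84.6, 60.5, 286 and 40.1 CPM in erythroid cells and 193, 258, 538 and 176 CPM in immature neutrophils. Ifit1 in erythroid cells (3.26, 2.60, 18.8 and 0.890 CPM) and Ifit3 in monocytes (3.87, 8.87, 19.5 and 5.59 CPM) were highest in WT replicate 1 as well. Usp18 had 7.88, 15.1, 20.8 and 4.90 CPM in monocytes and Rsad2 5.39, 7.07, 15.1 and 3.15 CPM. Stat2 was nearly level in B-cell precursors, with 10.6, 16.1, 13.6 and 17.3 CPM. Tor3a was the member most often higher in TLR9-/- cells, with both libraries above both WT libraries in 6 of 13 classes. Irgm1 and Ifi47 were so in 4 of 14 and 4 of 16, against 19.6% of all tests. Sp100 lay lower in both TLR9-/- libraries in 8 of 16 classes, Herc6 in 6 of 11, Parp14 in 5 of 15 and Oas3 in 4 of 7, against 17.3% of all tests, and none of these passed the adjustment.

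Over all cells together, a value that moves with the makeup of the marrow, 0 of the 41 members passed by edgeR, where 0.268% of 14194 genes passed. Oasl2, Isg20 and Cmpk2 had an unadjusted p under 0.05, and DESeq2 called these 3, for which the shares of all genes are not given here. Oasl2 had 2.11, 2.77, 16.4 and 6.38 CPM, Isg20 64.1, 84.4, 178 and 110.3 CPM and Cmpk2 12.3, 13.9, 29.99 and 20.9 CPM, with no overlap of the genotypes. Both TLR9-/- libraries lay below both WT libraries for 5 of the 41 members, against 25.9% of all genes tested over all cells. The number of erythroid cells, the class marked by Isg20, was 889, 773, 1681 and 869.

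The pathway around the members was read in the same classes. The 21 interferon ligands had 260 UMIs in all, 12 of them none, and Ifnb1 a single UMI. Ifng, the gene of interferon-γ, had 102, 22, 75 and 8 UMIs over all cells. Ifna1 and Ifna2 were counted in WT replicate 1 alone, with 18 and 22 UMIs, of which 17 and 22 were in plasmacytoid dendritic cells, and Ifna9, Ifna11 and Ifnk had 1 UMI each in the same library. The 6 receptor genes passed in 0 of 80 tests, the 11 kinases and signalling genes in 0 of 173, the 9 negative regulators in 0 of 123 and the sensors and adaptors in 0 of 149. Of all gene tests 0.339% passed, and counts of 0 in lists this small lie near that share. Ifnar1 had 30.1, 32.4, 23.2 and 29.0 CPM in monocytes and 110.7, 97.0, 129.9 and 145 CPM in plasmacytoid dendritic cells, and Ifnar2 193, 229, 215 and 190.2 CPM in monocytes. Ifngr1 had 198, 222, 189 and 219 CPM and Ifngr2 73.1, 90.7, 48.7 and 59.8 CPM in monocytes, the latter higher in both TLR9-/- libraries (adjusted p = 0.430). Over all cells Ifngr2 had 30.2, 31.5, 17.0 and 18.8 CPM, in the same order (adjusted p = 0.111 by edgeR). Irf9 overlapped between the genotypes in monocytes, at 57.4, 71.8, 68.5 and 65.0 CPM. Irf7, which is itself induced by interferon, had 47.8, 93.3, 108 and 36.0 CPM in monocytes and 208, 267, 258 and 110.1 CPM in plasmacytoid dendritic cells, so that WT replicate 2 was lowest in both. In mature neutrophils Irf7 had 78.9, 70.3, 39.0 and 43.5 CPM, with both TLR9-/- libraries above both WT libraries and WT replicate 1 lowest. Its log2 fold change there, 0.85 (standard error 0.34), did not pass the adjustment. The genotypes overlapped for Irf7 in B-cell precursors, B cells, erythroid cells and immature neutrophils.

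Among 88 other interferon-stimulated genes outside the member list, 47 of 872 tests passed with a lower and 1 with a higher level in TLR9-/- cells. Of all gene tests 0.339% passed. The calls among the 88 came from 6 genes, and most were repeats of the same genes over classes that come from the same mice. The lists were also chosen with earlier results of these data known. The count of calls therefore cannot be set against the share of all gene tests as a result for the 88 genes as a set. Trim12a passed in 15 classes, Trim30d in 12, Trim34a in 9 and Trim5 in 10, all of them of the tripartite motif family and near-identical to neighbouring copies, so their counts are uncertain. In monocytes Trim12a had 2, 2, 94 and 67 UMIs, Trim30d 1, 7, 89 and 60, Trim34a 16, 14, 68 and 37 and Trim5 2, 1, 34 and 33. Both WT libraries stood far above both TLR9-/- libraries for each. Ly6a (Sca-1) was lower in TLR9-/- HSPCs, with 48.1, 64.1, 143 and 118 CPM (log2 fold change −1.22, standard error 0.22, adjusted p = 0.0477), and Ifitm1, the neighbour of Ifitm3, was higher in the C1qb, C1qc and C1qa cluster, with 121, 155, 18.3 and 36.3 CPM (log2 fold change 2.55, standard error 0.40, adjusted p = 0.0216). WT replicate 1 was highest in 54.7% of the 872 tests, against 23.2% of all gene tests, and the same limits hold for this share.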

How the data were processed

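The authors deposited gene-by-cell tables of whole UMI counts, 1 per mouse, made with Cell Ranger and STAR on mm10 per the labels and methods. From these counts, cells with 200 to 10000 genes and at most 10% mitochondrial UMIs were kept. Doublets were scored but left in the main tests. Scores marked 2.87% to 7.12% of cells per library, and in WT replicate 2, where the score's own threshold marked 0.0112%, the top scores at the expected rate were used. Cells were clustered in scanpy 1.11.5 (Python 3.11.15, leidenalg 0.10.2; 2000 variable genes without the members and other interferon-stimulated genes, 30 components, 15 neighbours, resolution 1) into 31 clusters. A cluster was named for the class with most markers among its top 10 genes by fold if at least 50% of that class's markers were raised and no class of another lineage had 75% raised. These limits were set after the clusters were seen.

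Counts were summed per library and class and tested with edgeR 4.0.16 (R 4.3.3; quasi-likelihood test, TMM scaling, filterByExpr, Benjamini-Hochberg adjustment over all genes of a class, threshold 0.05), with 2 libraries per genotype. The standard error is the log2 fold change divided by the square root of the F statistic. DESeq2 1.42.0, another scaling, no count filter, a replicate block and leaving out each library were alternatives, and doublets left out, cells of at least 1000 UMIs and classes from all variable genes were also run. The scripts were tested on simulated data. Members named are those with adjusted p under 0.05, those marking a class, in each class described the 3 with the largest absolute log2 fold change among those with unadjusted p under 0.05, and Ifit1, Ifit3, Isg15, Rsad2, Usp18, Ifi27l2a, Ifitm3 and Stat2. Pathway genes named are those that passed, the receptors, Irf7 and Irf9, and an item of this rule is not reported here. Others were named after their values were seen. The members and lists were chosen with earlier results of these data known. Intervals and limits of counts cover counting error only.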

Additional observations from a re-analysis of the deposited data

Results flagged for a closer look

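The difference in the TLR9-/- effect on Cmpk2 between monocytes and B-cell precursors, tested directly, was 1.16 on the log2 scale (standard error 0.28, adjusted p = 0.0414 by edgeR's quasi-likelihood test, range over the alternatives 0.000404 to 0.436). Cmpk2 was lower in both TLR9-/- libraries than in both WT libraries in each of the 2 classes, by 0.23 in monocytes and 1.40 in B-cell precursors on the log2 scale.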

How the results depend on the processing

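The count of member tests that passed within classes, 3 of 455, was 5 by DESeq2, 26 with no filter on low counts, 1 with doublets left out, 3 to 28 when 1 library was left out (9 without TLR9-/- replicate 1, 21 without TLR9-/- replicate 2, 28 without WT replicate 2), 3 with another scaling and 2 with cells of at least 1000 UMIs or classes from all variable genes. The replicate block gave 21. Over all cells, 0 members became 3 by DESeq2, 3 with no filter, 2 with the replicate block and 0 to 4 when 1 library was left out (4 without WT replicate 2). The correlation of same-numbered libraries' deviations was 0.36 over all cells and −0.05 to 0.51 over classes, and the labels do not say that the numbers pair the mice. The 1 member that differed between monocytes and B-cell precursors became 0 with another scaling (adjusted p = 0.0582), 2 with no filter and 0 to 2 when 1 library was left out. The 5 members marking a class became 3 with a margin of 1.5 times, 3 with classes from all variable genes and 5 to 11 when 1 library was left out (9 without WT replicate 1, 11 without WT replicate 2). The longer promoter motif, AGTTTC, any 2 bases and TTTC, stood in 36.7% of the members' promoters and 0.303% of all. The cause of these changes was not tested. Apart from the promoter motif, the shares of all genes in these settings are not given beside the counts.

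The share of member tests highest in WT replicate 1, 70.5%, was 68.1% to 73.6% under 3 alternatives chosen after seeing the data. Adjusted p ranged over the alternatives from 8.45e-07 to 0.150 for Oasl2 in immature neutrophils (not tested with doublets left out, where its counts were too low for the filter), from 8.29e-16 to 0.829 for Oasl2 in mature neutrophils (0.0825 with cells of at least 1000 UMIs) and from 2.31e-10 to 0.256 for Ifitm3 in T cells (0.198 with classes from all variable genes), and none of these or Cmpk2 changed direction. The difference in monocytes with at least 3 member UMIs, −4.32 points, was −5.43 to −1.26 at other depths and limits and −9.06 to 0.417 when 1 library was left out. With 2 libraries per genotype, genes of few UMIs are limited by depth.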
